A study of Homo sapiens with 6 samples.

Results

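Ribosomes are assembled in the nucleolus from RNA that RNA polymerase I transcribes, and the 54 genes described here encode subunits and initiation factors of that polymerase and the proteins that modify, fold, cut and export the ribosomal RNA. They were chosen by symbol as known ribosome biogenesis genes and not by a rule on measured values, but earlier results of these data were known. All 54 stood among the 16407 genes of the deposited table and the 12548 that passed the filter on low counts. RNA was measured in C666-1, a nasopharyngeal carcinoma line that carries Epstein-Barr virus, in 3 libraries from medium without serine and glycine and 3 libraries from complete medium, each after 24 h. Both media were minimal essential medium made up without non-essential amino acids, with glucose at 4.5 g/L, antibiotics and dialyzed serum at 10%. The complete medium also contained glycine and serine, each at 0.4 mM, and the deprived medium contained neither. All libraries come from this single tumour line, and the labels do not say whether a library stands for a culture of its own, so any p-value given rests on library-to-library spread, part or all of which could be technical.

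As background, RNA polymerase I is brought to the ribosomal RNA genes by the factor RRN3, the TAF1 subunits of the promoter complex SL1 and the architectural protein UBTF. The long precursor is modified by small nucleolar ribonucleoproteins (snoRNPs), in which box C/D particles methylate the ribose and box H/ACA particles make pseudouridine at sites chosen by a guide RNA. The precursor is then folded and cut in the small subunit processome for the 40S subunit and in a separate line of particles for the 60S subunit, and growing tumour cells are known for large nucleoli and for high levels of this machinery. Glycine supplies atoms of the purine ring, and serine supplies carbon units to the same pathway, so both media components feed the nucleotides from which ribosomal RNA is made.

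The libraries held 16612189 to 17030352 estimated counts. Pairs of libraries from 1 medium differed by 2.76 to 19.1 in mean chi-square per gene, and pairs from different media by 9.26 to 34.0, so the replicates are not copies of each other and some lie farther apart than libraries of different media do. The libraries numbered 1 stood apart in both media, and results are given with and without them. The carcinoma label was set against epithelial markers: the keratins KRT8 and KRT18 had 262 to 655 FPKM (a level scaled by transcript length and library depth), EPCAM had 5.02 to 6.03 FPKM, and KRT5 and CDH1 were at 0.12 FPKM or below. Of 8 leukocyte markers, 4 were in the table, with a summed level of 26.3 to 29.6 FPKM in deprived medium and 35.8 to 41.7 FPKM in complete medium. Nearly all of that sum was CD68, a lysosomal protein, while the defining leukocyte gene PTPRC was at 0 to 0.03 FPKM. The 7 fibroblast and endothelial markers in the table summed to 7.99 to 10.4 FPKM in deprived medium and 8.56 to 10.8 FPKM in complete medium.

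A few members fell without serine and glycine and the rest were not called. By edgeR's quasi-likelihood test, with Benjamini-Hochberg adjustment over all 12548 genes and a call at 0.05, 5 of the 54 genes were lower in deprived medium: NOP56, GAR1, NCL, BOP1 and PES1. That is 9.26% of the members, beside 4.22% of all tested genes called lower. The same test called 0 members higher, beside 2.73% of all tested genes. DESeq2 and limma voom also called 0 members higher, and 2 members, POLR1D and RRP1B, were higher at an unadjusted p under 0.05, beside 12.9% of all tested genes. At the same unadjusted p 18 members were lower, beside 14.4% of all tested genes. The log2 changes, deprived over complete medium, ranged from -0.64 to 0.20 with a median of -0.08, against a median of 0.00 over all tested genes. The members' median deviation in a library had an SD of 0.058 on the log2 scale, so the median change lies near that spread. Of the 54, 36 (66.7%) were negative, beside 50.2% of all tested genes.

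The libraries' values separated more often than they were called. In 15 members every deprived library lay below every complete-medium library, which is 27.8% of the members beside 16.4% of all tested genes. In 2 members, POLR1D and RRP1B, every deprived library lay above, beside 16.1% of all tested genes. With the replicate number as a block in the same test, 14 members were lower and 1 was higher, beside 13.2% of all genes lower and 11.1% higher. Those 14 were the 5 named above together with NOP10, NPM1, NOLC1, DDX21, MYBBP1A, NOP14, HEATR1, WDR75 and GNL3, and the member higher with the block was RRP1B.

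**Figure D1:**
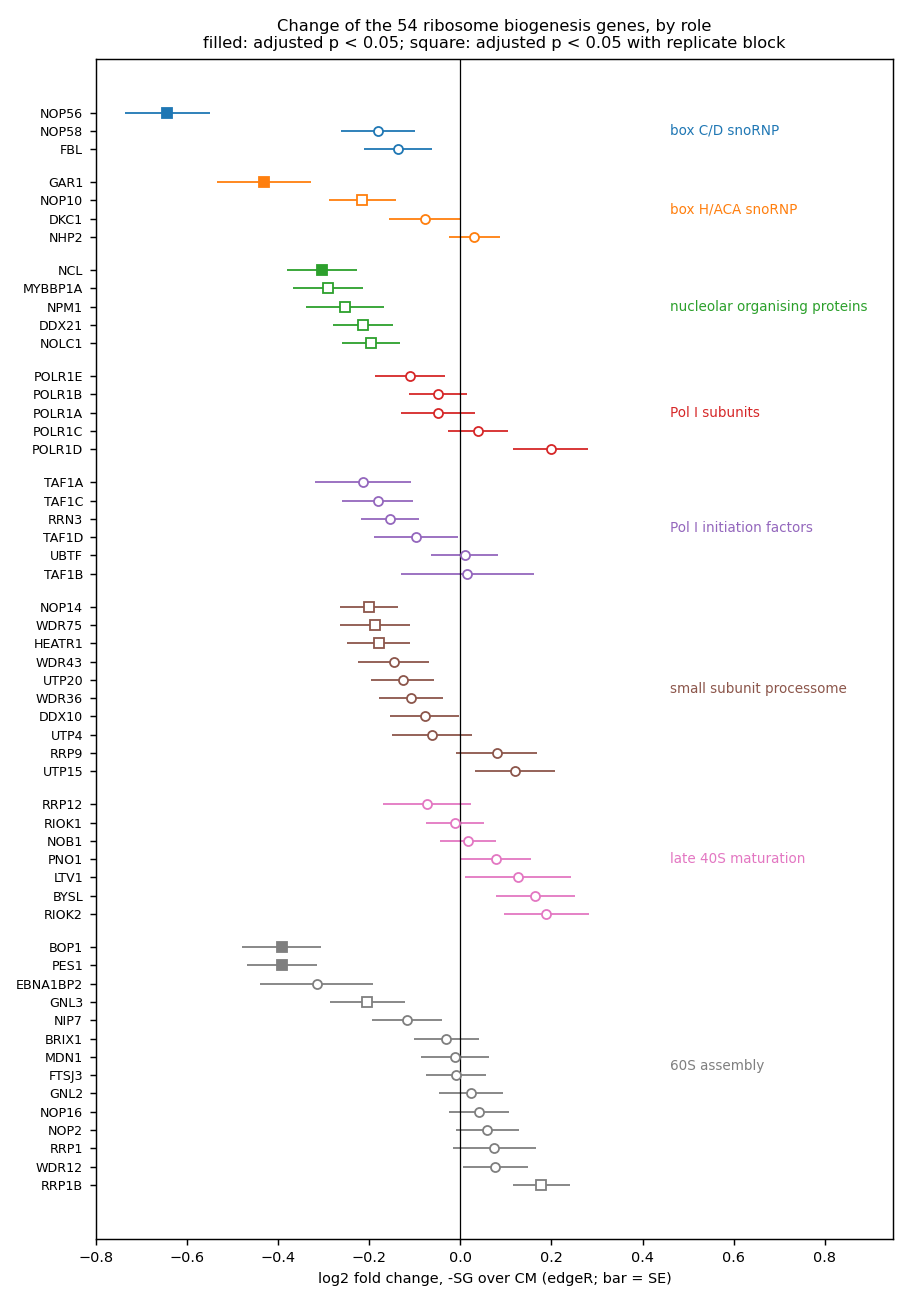
Log2 fold change of each of the 54 genes, medium without serine and glycine (-SG) over complete medium (CM), with its SE from edgeR, grouped by role. Filled symbols (5 genes, all to the left of 0) have an adjusted p under 0.05, and squares (15 genes) have one with the replicate block.

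The calls rested on particular libraries. When replicate 2 or 3 of either medium was left out, edgeR called 0 genes of the whole table and so 0 members, although 10 to 14 members were lower at an unadjusted p under 0.05 in those 4 fits, beside 9.19% to 12.1% of all genes. In the same 4 fits DESeq2 called 2 to 4 members lower, beside 1.35% to 3.27% of all genes, and limma voom called 0. Without replicate 1 of complete medium 7 members were called lower and 0 higher, beside 6.23% and 4.19% of all genes. Without replicate 1 of deprived medium 9 were lower and 2 higher, beside 7.74% and 5.99% of all genes. Leaving out both libraries numbered 1 gave 24 members lower, beside 15.5% of all genes, and 2 higher, POLR1D and RRP1B, beside 13.5% of all genes. Those 24 were the 14 that were lower with the block together with NOP58, DKC1, RRN3, TAF1A, UTP4, UTP20, WDR36, WDR43, NIP7 and EBNA1BP2. The 5 called members kept a negative log2 change in each of these fits, which share their libraries with the fit of all 6.

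The members moved together between libraries of 1 medium as well. Among the deprived libraries, replicate 1 held the highest value of 39 of the 54 members (72.2%, beside 40.7% of all tested genes). Among the complete-medium libraries, replicate 2 held the highest value of 37 members (68.5%, beside 36.1% of all genes) and replicate 1 the lowest value of 30 (55.6%, beside 39.5%). The summed level of the 54 genes was 4473, 4320 and 4277 FPKM in deprived libraries 1 to 3, against 4596, 5101 and 4738 FPKM in complete-medium libraries 1 to 3, and the groups did not overlap. That separation rested on NPM1: without it the other members summed to 3102, 2862 and 2849 FPKM in deprived libraries 1 to 3, against 3062, 3310 and 3092 FPKM in complete-medium libraries 1 to 3, and deprived library 1 lay above complete-medium libraries 1 and 3. In bulk RNA a smaller share of the library, fewer cells of a type and less RNA per cell cannot be told apart.

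**Figure D2:**
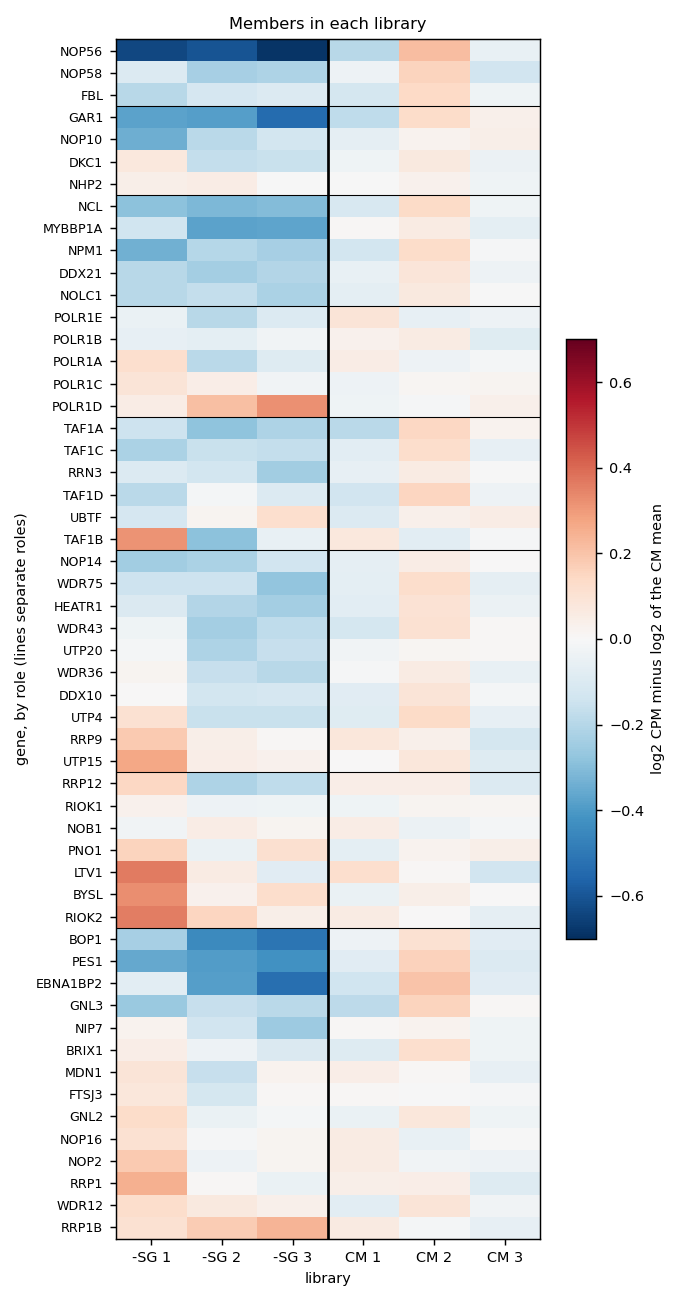
Level of each member in each library as log2 CPM (counts scaled to library depth) minus the log2 of its mean in complete medium, with -SG libraries on the left and CM libraries on the right and lines between roles. NOP56, GAR1, NCL, PES1 and BOP1 are blue in all 3 -SG libraries, while BYSL, RIOK2 and LTV1 are reddest in -SG 1.

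**Figure D3:**
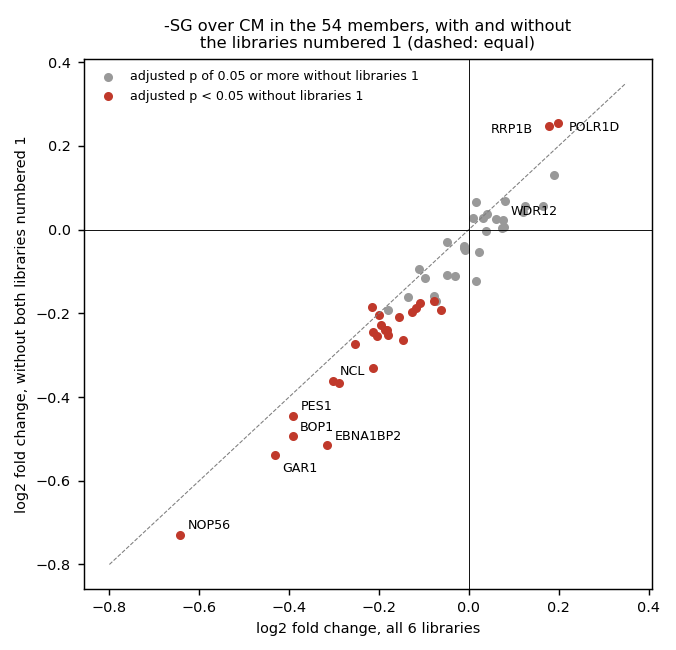
Log2 fold change of the 54 members, -SG over CM, with all 6 libraries (horizontal axis) and without both libraries numbered 1 (vertical axis). Most points with a negative change lie below the dashed line of equality, and 26 members (red) have an adjusted p under 0.05 in the smaller fit, 24 of them lower.

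Among the core proteins of box C/D snoRNPs, NOP56 fell and its partners did not pass the test with all 6 libraries. NOP56 is a scaffold that holds the guide RNA beside the methyltransferase (NCBI Gene 10528, chromosome 20, 2652632 to 2658393 on GRCh38). On the CPM scale, counts scaled to library depth, it had 94.0, 96.1 and 91.0 CPM in deprived libraries 1 to 3, against 128, 170 and 141 CPM in complete-medium libraries 1 to 3. The deprived values lie close together and all lie below the lowest complete-medium value. The log2 change was -0.64 (SE 0.094, adjusted p = 0.0217), the largest fall among the 54, and it ranged from -0.73 to -0.52 when 1 library was left out. NOP58, the paralogous scaffold on the other side of the particle, had 109, 99.3 and 100 CPM in deprived medium, against 114, 130 and 106 CPM in complete medium, and the groups overlapped (log2 change -0.18, SE 0.081, adjusted p = 0.182). FBL, fibrillarin, the methyltransferase itself, had 120, 126 and 128 CPM in deprived medium, against 126, 151 and 134 CPM in complete medium (log2 change -0.14, SE 0.074, adjusted p = 0.263). Without both libraries numbered 1, NOP58 was called lower (log2 change -0.24, adjusted p = 0.0396) and FBL had an adjusted p of 0.0525.

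The box H/ACA core gave a similar split. GAR1, needed for the pseudouridine reaction (NCBI Gene 54433, chromosome 4, 109815510 to 109824737), had 18.8, 18.6 and 16.7 CPM in deprived medium, against 21.5, 26.6 and 24.9 CPM in complete medium, with no overlap. It fell by 0.43 on the log2 scale (SE 0.102, adjusted p = 0.0380). NOP10, the smallest core protein, had 52.6, 58.4 and 60.9 CPM in deprived medium, against 63.6, 67.5 and 68.4 CPM in complete medium. Its log2 change of -0.22 (SE 0.073) was not called without the block (adjusted p = 0.0963) and was called with the replicate block (adjusted p = 0.0210). DKC1, dyskerin, the pseudouridine synthase, had 455, 385 and 388 CPM in deprived medium, against 424, 453 and 419 CPM in complete medium, so its highest value was in deprived library 1 (adjusted p = 0.561). Once the libraries numbered 1 were left out, DKC1 was called lower, with a log2 change of -0.17 (adjusted p = 0.0156). NHP2, an RNA-binding subunit, had 104, 105 and 101 CPM in deprived medium, against 101, 104 and 99.2 CPM in complete medium, and the groups overlapped (log2 change 0.03, SE 0.056, adjusted p = 0.761).

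The RNAs of the 5 nucleolar organising proteins outside these particles were all lower in every deprived library than in any complete-medium library. Such a separation was found in 16.4% of all tested genes. Of the 5, NCL alone passed the test. NCL, nucleolin, binds ribosomal RNA and nucleolar chromatin (NCBI Gene 4691, chromosome 2, 231453531 to 231464484). It had 675, 663 and 668 CPM in deprived medium, against 762, 904 and 809 CPM in complete medium, a log2 change of -0.30 (SE 0.077, adjusted p = 0.0444). NPM1, nucleophosmin, a histone and ribosome chaperone and the most abundant member at 1538 FPKM, had 1405, 1544 and 1510 CPM in deprived medium, against 1620, 1934 and 1762 CPM in complete medium (log2 change -0.25, SE 0.086, adjusted p = 0.0945, and 0.00706 with the block). GENCODE 29 names 45 pseudogenes after NPM1, so its estimated counts may include or lose reads of these copies. Of the called members, NOP56 has 3 such pseudogenes, NCL 2 and PES1 2, with the same limit, and GAR1 and BOP1 have 0.

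MYBBP1A, a nucleolar protein that binds MYB and p53, missed the threshold narrowly. It had 108, 91.3 and 91.8 CPM in deprived medium, against 119, 123 and 113 CPM in complete medium (log2 change -0.29, SE 0.077, adjusted p = 0.0504, and 0.00852 with the block). The helicase DDX21, which couples polymerase I transcription to processing, had 582, 565 and 579 CPM in deprived medium, against 643, 706 and 651 CPM in complete medium (log2 change -0.21, adjusted p = 0.0766, and 0.0165 with the block). NOLC1, which carries snoRNPs to the nucleolus, had 405, 412 and 397 CPM in deprived medium, against 441, 486 and 462 CPM in complete medium (log2 change -0.20, adjusted p = 0.0859, and 0.0167 with the block). Within this role the log2 changes spanned only -0.30 to -0.20, the narrowest range among the 8 roles.

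No subunit of RNA polymerase I passed the test. POLR1A, the catalytic subunit, had 94.9, 76.8 and 82.2 CPM in deprived medium, against 90.6, 85.3 and 86.7 CPM in complete medium (log2 change -0.05, SE 0.081, adjusted p = 0.736). POLR1B, the second-largest subunit, stood at 72.8 ± 1.07 CPM in deprived medium and 75.4 ± 3.91 CPM in complete medium (SD, n = 3 each; adjusted p = 0.650). POLR1D, a small subunit shared with RNA polymerase III, had 39.97, 44.7 and 48.0 CPM in deprived medium, against 37.7, 38.4 and 39.6 CPM in complete medium. All its deprived values lay above, and the log2 change of 0.20 (SE 0.081) had an adjusted p of 0.150, of 0.0506 with the block and of 0.0193 without both libraries numbered 1. POLR1C, the other shared subunit, had 53.3, 51.7 and 49.3 CPM in deprived medium, against 48.8, 50.5 and 50.8 CPM in complete medium (adjusted p = 0.740). POLR1E, of the polymerase's peripheral module, had 34.0, 30.7 and 32.8 CPM in deprived medium, against 37.3, 33.7 and 34.3 CPM in complete medium (log2 change -0.11, adjusted p = 0.384).

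The initiation factors were not called either. RRN3, which makes the polymerase competent to start, had 159, 156 and 144 CPM in deprived medium, against 164, 178 and 170 CPM in complete medium, with no overlap (log2 change -0.15, SE 0.063, adjusted p = 0.147, and 0.00952 when the libraries numbered 1 are left out). UBTF, which binds along the ribosomal RNA genes, had 142, 156 and 167 CPM in deprived medium, against 144, 158 and 159 CPM in complete medium, and the groups lay in the same range (log2 change 0.01, SE 0.074, adjusted p = 0.945). Of the SL1 subunits, TAF1C had 33.0, 34.6 and 34.3 CPM in deprived medium, against 36.7, 41.9 and 37.0 CPM in complete medium (log2 change -0.18, adjusted p = 0.166). TAF1A, TAF1D and TAF1B had log2 changes of -0.21, -0.10 and 0.01 with adjusted p of 0.220 to 0.961, and TAF1B was the least precise member (SE 0.146).

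In the small subunit processome 8 of 10 members had a negative log2 change and 0 were called, while at an unadjusted p under 0.05 there were 3, namely NOP14, HEATR1 and WDR75, a share of the 10 to be read against the 14.4% of all genes. These are the 3 that were called with the replicate block. NOP14, a scaffold of the processome, had 79.8, 81.0 and 86.2 CPM in deprived medium, against 90.6, 98.2 and 94.9 CPM in complete medium (log2 change -0.20, SE 0.063, adjusted p = 0.0776, and 0.0225 with the block). HEATR1, a large repeat protein of the t-UTP group that also affects polymerase I transcription, had 255, 237 and 231 CPM in deprived medium, against 260, 293 and 266 CPM in complete medium (log2 change -0.18, adjusted p = 0.129, and 0.0452 with the block). WDR75, of the same t-UTP group, had 56.7, 56.7 and 51.7 CPM in deprived medium, against 59.7, 68.3 and 60.1 CPM in complete medium (log2 change -0.19, adjusted p = 0.147, and 0.0486 with the block).

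Other t-UTP proteins overlapped between media. UTP4 had 127, 106 and 106 CPM in deprived medium, against 112, 130 and 114 CPM in complete medium (log2 change -0.06, adjusted p = 0.683). WDR43 had 135, 117 and 122 CPM in deprived medium, against 127, 149 and 139 CPM in complete medium (log2 change -0.15, adjusted p = 0.256). In both genes deprived library 1 held the highest deprived value, and without both libraries numbered 1 their adjusted p was 0.0319 and 0.00259. UTP15, also of this group, went the other way with a log2 change of 0.12 (adjusted p = 0.410), as did RRP9, a protein of the U3 snoRNP, with 0.08 (adjusted p = 0.597). UTP20, WDR36 and the helicase DDX10 lay between -0.13 and -0.08 (adjusted p = 0.267 to 0.541).

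Late 40S maturation was the role in which most changes were positive, 5 of 7, and 0 were called in either direction, also at an unadjusted p under 0.05, with the block, by DESeq2 and by limma voom. RIOK2, a kinase of late 40S particles, had 37.8, 32.7 and 30.3 CPM in deprived medium, against 30.7, 29.5 and 28.2 CPM in complete medium (log2 change 0.19, SE 0.093, adjusted p = 0.220). BYSL, bystin, had 49.0, 40.01 and 42.6 CPM in deprived medium, against 37.8, 40.3 and 39.3 CPM in complete medium (log2 change 0.16, SE 0.086, adjusted p = 0.244). In RIOK2, BYSL and LTV1, an export adaptor of 40S particles, deprived library 1 was the highest of all 6 libraries, and without both libraries numbered 1 their log2 changes were 0.13, 0.06 and 0.06. NOB1, the nuclease that makes the last cut of the small subunit RNA, had 68.9, 72.7 and 71.2 CPM in deprived medium, against 72.6, 68.2 and 69.6 CPM in complete medium (log2 change 0.02, SE 0.061, adjusted p = 0.888). Its partner PNO1, the kinase RIOK1 and the export factor RRP12 had log2 changes of 0.08, -0.01 and -0.07 (adjusted p = 0.556 to 0.929).

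In 60S assembly, PES1 and BOP1 fell, and WDR12, which binds them in the PeBoW complex, did not pass the test. This complex is needed for the maturation of the large subunit RNAs. PES1, pescadillo (NCBI Gene 23481, chromosome 22, 30576625 to 30607013), had 96.5, 94.1 and 92.1 CPM in deprived medium, against 117, 138 and 116 CPM in complete medium, a log2 change of -0.39 (SE 0.077, adjusted p = 0.0250). BOP1 (NCBI Gene 23246, chromosome 8, 144262045 to 144291438) had 61.2, 52.8 and 50.4 CPM in deprived medium, against 70.1, 77.6 and 68.1 CPM in complete medium, a log2 change of -0.39 (SE 0.087, adjusted p = 0.0320). In both genes the groups did not overlap in CPM. WDR12 had 46.6, 45.0 and 43.9 CPM in deprived medium, against 40.7, 45.6 and 42.1 CPM in complete medium (log2 change 0.08, SE 0.072, adjusted p = 0.523). On the FPKM scale BOP1 overlapped, with 48.9, 37.7 and 29.4 FPKM in deprived medium, against 43.1, 54.2 and 45.5 FPKM in complete medium, and limma on log2(FPKM + 1) did not call it. Exons of TCN2 on the opposite strand overlap those of PES1 in GENCODE 29, but TCN2 had 0 to 17 counts in any library.

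**Figure D4:**
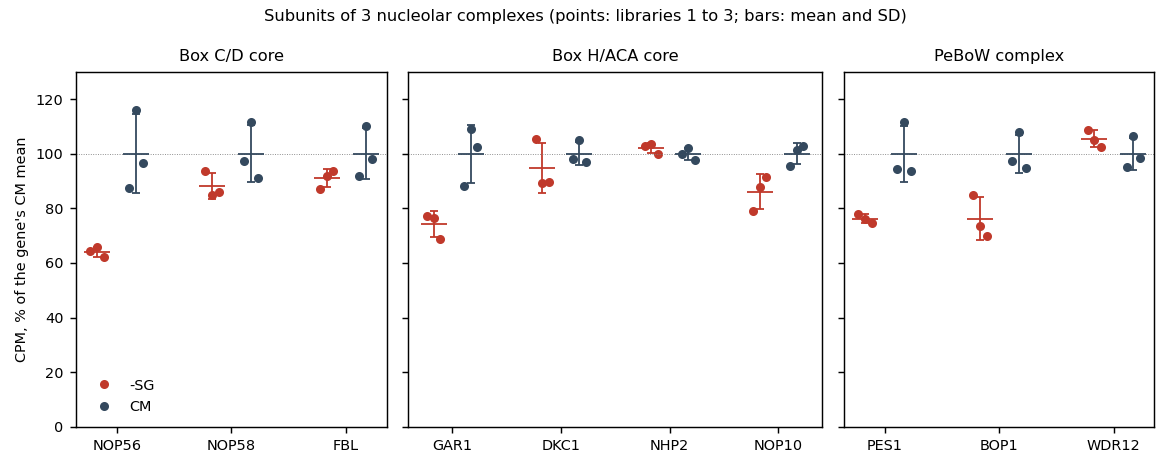
Subunits of the box C/D, box H/ACA and PeBoW complexes as a percentage of each gene's mean CPM in complete medium, -SG left of CM, with 3 libraries, mean and SD for each. NOP56, GAR1, NOP10, PES1 and BOP1 are separated between media, while NOP58, FBL, DKC1, NHP2 and WDR12 overlap.

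Ratios within a library show these differences inside a complex without the scaling to library depth, though FPKM still scales by length. They were chosen after the values were seen, so no test is used for them. An exact permutation test with 3 libraries per medium cannot give a p under 0.1. Of the 7 ratios computed, not all are given here. The ratio of NOP56 to NOP58 in FPKM was 0.904, 1.02 and 0.952 in deprived libraries 1 to 3, against 1.18, 1.37 and 1.39 in complete-medium libraries 1 to 3, so NOP56 was near the level of NOP58 in deprived medium and above it in complete medium. PES1 to WDR12 was 8.10, 8.15 and 8.16 in deprived medium, against 11.1, 11.8 and 10.7 in complete medium, the tightest ratio of those computed. GAR1 to NHP2 was 0.121, 0.121 and 0.113 in deprived medium, against 0.145, 0.175 and 0.172 in complete medium. By contrast PES1 to BOP1 was 1.02, 1.25 and 1.56 in deprived medium, against 1.36, 1.25 and 1.26 in complete medium, and overlapped. Its log2 difference between media was -0.036 (SE 0.183) in FPKM and 0.008 (SE 0.072) in CPM, where it overlapped as well. The wider spread in FPKM goes with the FPKM values of BOP1 given above.

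The other 60S factors were not called. EBNA1BP2, a nucleolar protein named for binding the Epstein-Barr virus protein EBNA1, had 216, 174 and 158 CPM in deprived medium, against 206, 261 and 215 CPM in complete medium (log2 change -0.32, SE 0.124, adjusted p = 0.142). Its first deprived library lay among the complete-medium values, and leaving out the libraries numbered 1 gave a log2 change of -0.52 (adjusted p = 0.00286). GNL3, nucleostemin, a GTP-binding protein, had 140, 150 and 148 CPM in deprived medium, against 148, 187 and 169 CPM in complete medium (log2 change -0.20, adjusted p = 0.145, and 0.0264 with the block). Its relative GNL2 had a log2 change of 0.02 (adjusted p = 0.865).

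RRP1B, a nucleolar protein with a role also in chromatin, had 121, 127 and 133 CPM in deprived medium, against 117, 111 and 108 CPM in complete medium, with no overlap (log2 change 0.18, SE 0.0625, adjusted p = 0.103, and 0.0466 with the block). Its paralog RRP1 had 47.8, 40.5 and 39.0 CPM in deprived medium, against 41.4, 41.6 and 37.9 CPM in complete medium, and the groups overlapped (adjusted p = 0.629). NOP16 had 59.7, 55.1 and 56.1 CPM in deprived medium, against 57.5, 53.4 and 55.2 CPM in complete medium (log2 change 0.04, adjusted p = 0.726). NOP2, a methyltransferase of the large subunit RNA, had a log2 change of 0.06 (adjusted p = 0.616). NIP7, BRIX1, the giant ATPase MDN1 and the methyltransferase FTSJ3 had log2 changes of -0.12 to -0.01 (adjusted p = 0.354 to 0.946).

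Levels per length spread widely across the machinery. Averaged over the 6 libraries, NPM1 had 1538 FPKM, NOP10 269 FPKM, NHP2 205 FPKM and NCL 204 FPKM. At the low end WDR12 had 5.64 FPKM, POLR1A 7.05 FPKM, UTP15 7.30 FPKM and TAF1B 7.46 FPKM. Within polymerase I the small shared subunits POLR1D and POLR1C had 58.2 and 55.4 FPKM, and the large subunits POLR1B and POLR1A had 10.1 and 7.05 FPKM. Members that fell were found from 28.8 FPKM (GAR1) to 204 FPKM (NCL).

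Many members share a sequence feature at their start site. The E-box CACGTG, which reads the same on both strands and is known as the binding sequence of MYC and its relatives, was searched in RefSeq promoters of GRCh38.p14 that run from 250 bases before to 50 bases after a gene's start. Starts are those of that table, which gives 10 members more than 1. Promoters were at hand for 48 members, and 19 of them (39.6%) held the E-box. The same letters were in the promoters of 36 of 117 other ribosome biogenesis genes (30.8%), of 12.9% of 10294 tested genes and in 7.26% of all 35116 promoters of the table. In 14 of the 19 the E-box was at the gene's outermost start. In GAR1, DDX21 and GNL3 it was at a second start, 252, 477 and 112 bases inside the gene's span, and the promoter at the outermost start held none. In PES1 and BYSL the only start in the table lay 15103 and 12740 bases inside the span. A match is a description and not a binding site. Of the 5 members that fell, PES1 and GAR1 had an E-box at these inner starts, NOP56 and NCL had none in these windows, and no promoter was read for BOP1.

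The following windows show the E-box in capitals with up to 25 bases on each side, 5′ to 3′ on the gene's strand, for PES1 and GAR1 and for the members that were lower with the replicate block.
PES1, chr22:30591867-30591922, minus strand: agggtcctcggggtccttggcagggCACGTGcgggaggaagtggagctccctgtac
GAR1, chr4:109815768-109815811, plus strand: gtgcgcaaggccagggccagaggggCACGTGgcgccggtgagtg
MYBBP1A, chr17:4555335-4555382, minus strand: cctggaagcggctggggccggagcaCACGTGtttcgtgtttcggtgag
DDX21, chr10:68956591-68956646, plus strand: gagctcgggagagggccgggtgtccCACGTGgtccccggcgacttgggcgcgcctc
NOP14, chr4:2963361-2963416, minus strand: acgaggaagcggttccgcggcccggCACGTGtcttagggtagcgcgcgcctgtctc
GNL3, chr3:52686013-52686068, plus strand: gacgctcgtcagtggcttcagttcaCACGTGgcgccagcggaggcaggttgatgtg
NOP10, chr15:34343117-34343172, minus strand: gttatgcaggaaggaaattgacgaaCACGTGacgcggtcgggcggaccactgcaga

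In these windows the E-box begins 13 bases after the start in PES1, 31 after it in GAR1, 27 in MYBBP1A, 15 in NOP14 and 6 in GNL3, and 31 bases before it in DDX21 and 11 before it in NOP10. NOP10 holds another E-box that begins 170 bases before the start. Members that were not called also hold it close to the start, as in the windows that follow, where it begins 6 bases after the start in FBL, 28 in BYSL, 35 in NOP2 and 9 in PNO1.
FBL, chr19:39846343-39846398, minus strand: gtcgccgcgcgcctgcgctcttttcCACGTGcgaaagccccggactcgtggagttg
BYSL, chr6:41921502-41921548, plus strand: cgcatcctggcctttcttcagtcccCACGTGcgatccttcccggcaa
NOP2, chr12:6568242-6568281, minus strand: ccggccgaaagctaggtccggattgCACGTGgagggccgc
PNO1, chr2:68157872-68157927, plus strand: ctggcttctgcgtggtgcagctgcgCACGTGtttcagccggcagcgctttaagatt

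The median log2 change was -0.14 in the 19 members with an E-box and -0.05 in the 29 without. In each set 2 were called lower, beside 4.22% of all tested genes. With the replicate block 7 and 5 were lower, beside 13.2% of all tested genes. A link between the E-box and the change was not tested. The second motif searched, TCTCGCGA on either strand, which does not overlap the E-box in its letters, was in 5 of the 48 members (10.4%), beside 2.90% of tested genes and 1.15% of all promoters. Those were NOP14, NPM1, POLR1C, LTV1 and TAF1D, of which 0 were called lower without the block, and NOP14 and NPM1 were lower with the block. The promoter of NOP56, the member with the largest fall, is shown whole, with no capitals because neither motif is in it.
NOP56, chr20:2652382-2652681, plus strand: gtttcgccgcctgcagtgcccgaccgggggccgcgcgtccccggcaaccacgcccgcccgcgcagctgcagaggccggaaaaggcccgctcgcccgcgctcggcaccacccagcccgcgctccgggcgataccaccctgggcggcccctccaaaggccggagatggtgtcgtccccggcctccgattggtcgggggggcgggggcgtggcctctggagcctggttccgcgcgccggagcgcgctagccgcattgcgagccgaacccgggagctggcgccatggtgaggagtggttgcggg

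Some members also carry snoRNA genes in their introns, so that splicing of their transcripts releases guide RNAs for the same pathway. By GENCODE 29, 7 members enclose 31 snoRNA genes on their own strand: NOP56, NOP58, DKC1, NCL, TAF1D, WDR43 and GNL3. NOP56 holds 5 of them, SNORA51, SNORD56, SNORD57, SNORD86 and SNORD110, and NCL holds SNORD20, SNORD82 and SNORA75. All 7 hosts had a negative log2 change, with a median of -0.18 and 2 called lower, NOP56 and NCL. Among the 47 other members 29 were negative, with a median of -0.05 and 3 called lower. Over all tested genes 50.2% of changes were negative and 4.22% of genes were called lower. With the replicate block 3 of the 7 and 11 of the 47 were lower, beside 13.2% of all tested genes. A link between hosting snoRNA genes and the change was not tested. The snoRNAs themselves were not analysed here, and whether intronic reads entered the hosts' counts was not tested.

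The rest of the pathway, a list of 142 further genes of which 141 were tested, was counted in the same way. Of these, 18 (12.8%) were lower and 3 (2.13%) were higher, beside 4.22% and 2.73% of all tested genes. Their median log2 change was -0.04. With the replicate block 31 were lower and 13 higher, beside 13.2% and 11.1% of all tested genes. Leaving out replicate 2 or 3 of either medium gave 0 calls as before. Among those lower with the smallest adjusted p were EMG1, PWP2, NOC4L and RUVBL2. EMG1, a methyltransferase of the small subunit RNA, had 64.6, 62.6 and 64.2 CPM in deprived medium, against 86.5, 109 and 96.7 CPM in complete medium (log2 change -0.61, SE 0.083, adjusted p = 0.0184). PWP2 and NOC4L, both of the small subunit processome, fell by 0.53 and 0.53 on the log2 scale (adjusted p = 0.0217 each), and RUVBL2, an ATPase that helps assemble snoRNPs, fell by 0.39 (adjusted p = 0.0221).

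By part of the pathway, 7 of 43 further small subunit factors (16.3%) were lower and 1 was higher. Of 51 large subunit factors, 7 (13.7%) were lower and 1 was higher. Of 25 genes of snoRNP assembly and the exosome, 3 (12%) were lower and 1 was higher. Over all tested genes 4.22% were lower and 2.73% higher. The 22 further genes of RNA polymerases I and III had a median log2 change of 0.02. The 3 that rose were SURF6, ABT1 and EXOSC6. SURF6, a nucleolar matrix protein, had 56.2, 47.9 and 55.9 CPM in deprived medium, against 43.1, 33.6 and 35.8 CPM in complete medium (log2 change 0.51, SE 0.103, adjusted p = 0.0265). ABT1 and EXOSC6, an exosome subunit, rose by 0.42 and 0.32 on the log2 scale (adjusted p = 0.0277 and 0.0320).

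Beside this machinery stand the genes of the ribosomal proteins, which it assembles. Of 82 cytosolic ribosomal protein genes tested, 0 were lower and 2 were higher, beside 4.22% and 2.73% of all tested genes. The 82 were taken by symbol and include like-named paralogs, such as RPS27L, which was among the higher. The median log2 change of the 82 was -0.06, and 62 (75.6%) had a negative change, beside 66.7% of the members. Without both libraries numbered 1 the median of the 82 was -0.0067, against -0.16 in the members. At an unadjusted p under 0.05, 6 were lower and 3 higher, and with the replicate block 12 were lower and 4 higher, the 12 being a share near that of all genes. Of 78 mitochondrial ribosomal protein genes, 8 (10.3%) were lower and 3 (3.85%) were higher. Their median was -0.08 with all 6 libraries and -0.097 without both libraries numbered 1. With all 6 libraries 54 (69.2%) had a negative change. The block gave 16 lower and 5 higher, beside 13.2% and 11.1% of all tested genes. No test of the difference between these groups and the members was made, and ribosomal protein genes have many pseudogene copies that can share their reads.

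**Figure D5:**
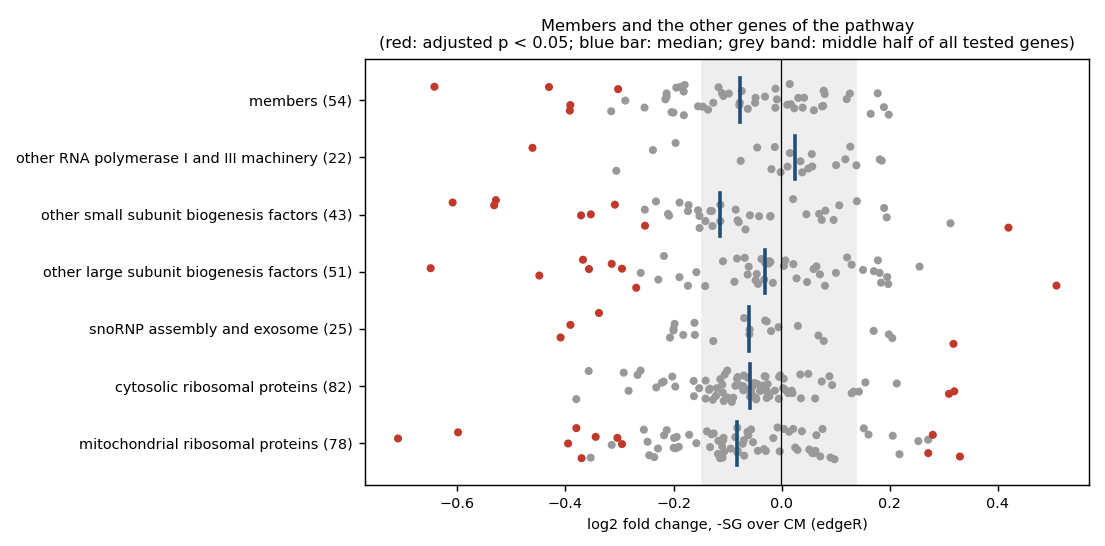
Log2 fold change, -SG over CM, of the 54 members, of the 4 lists of further pathway genes and of the cytosolic and mitochondrial ribosomal protein genes, with red points for adjusted p under 0.05, a blue bar at each median and a grey band between the quartiles of all tested genes. The medians lie between -0.11 and 0.02, and red points to the left of 0 appear in each row but that of the cytosolic ribosomal proteins.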

How the data were processed

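The 6 mRNA libraries were made from Trizol-extracted RNA by fragmentation, cDNA synthesis, adaptor ligation and circularisation, per the labels' protocols. The submitters' processing notes name RSEM 1.3.1, Bowtie2 2.3.4.3 and the build GRCh38 but no settings. The annotation release and strand setting are not given in the sources used here. Deposited by the authors were, for each gene, expected counts that need not be whole, and FPKM and TPM values scaled by length and depth. Their 6 columns of means were not used.

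After rounding, expected counts went into edgeR 4.0.16 (R 4.3.3): filterByExpr (minimum count 10, total 15), TMM factors of 0.978 to 1.02, and a robust quasi-likelihood fit with medium as its term. The common coefficient of variation was 8.43%. CPM uses TMM-scaled totals. The SE is the absolute log2 fold change over the square root of F, so it is not independent of the p. Multi-mapping reads make values of paralogs and pseudogenes uncertain, and since strand use is unknown, reads where 2 genes overlap antisense may belong to either. Alternatives used DESeq2 1.42.0 and limma 3.58.1, with limma on voom weights or log2 of the value plus a pseudocount, for genes with at least 0.5 in 3 libraries. The procedure was tested on simulated data.

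Same-numbered libraries correlated in their deviations from the group means at 0.326, 0.141 and 0.190, each above the 0.1 used as the minimum for pairing. Libraries of different number ranged from -0.282 to 0.163. The labels do not say what a number marks.

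Members, lists and tests were chosen with earlier results of these data known. All members could be named. Values of all libraries are given for members called with or without the block and for the 2 of each role with the highest mean FPKM, and others were added after their values were seen. Of the further genes, up to 5 per direction with the smallest adjusted p are named, except 1 that is not reported here. Gene positions and promoters are from RefSeq (GRCh38.p14), and all 54 members matched by NCBI Gene number.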

Additional observations from a re-analysis of the deposited data

How the results depend on the processing

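Of the 5 members called lower, all 5 were called with DESeq2's size factors in edgeR, with library totals, by DESeq2, by limma voom, with no filter on low counts, with the replicate block and without either or both libraries numbered 1. Among the members, the block added the calls given in the report and ended none. The count of members lower was 9 by DESeq2, 2 by limma on log2(FPKM + 1) and on log2(FPKM + 0.1) (NOP56 and PES1), 1 by limma on log2(TPM + 1) (NOP56), 14 with the replicate block, 24 without both libraries numbered 1 and 0 to 9 with 1 library left out. Over all tested genes 13.2% were lower with the block, 15.5% without both libraries numbered 1 and 0% to 7.74% with 1 library left out. The shares of all genes in the DESeq2 and limma fits of all 6 libraries are not given here. Counts from those fits, for members or further genes, therefore cannot be told from a general change in the number of calls. The count higher was 1 with the replicate block, 2 without both libraries numbered 1 and 0 to 2 with 1 library left out. For all tested genes the shares higher were 11.1%, 13.5% and 0% to 5.99% in the same order. Of the further pathway genes, 9 were lower and 1 higher on log2(FPKM + 0.1), 10 lower on log2(FPKM + 1), 3 lower and 0 higher on log2(TPM + 1), 31 and 13 with the replicate block, 48 and 11 without both libraries numbered 1, and 0 to 29 lower and 0 to 5 higher with 1 library left out. The members' median log2 change was -0.16 without both libraries numbered 1 and -0.15 to -0.047 with 1 library left out. It was negative under every alternative, as were the changes of the 5 called members. In 13 members, none of them called with all 6 libraries, the log2 change had both signs with 1 library left out: POLR1A, UBTF, TAF1B, UTP4, NOB1, RIOK1, NOP2, GNL2, BRIX1, FTSJ3, MDN1, RRP1 and LTV1, the last at -0.0097 to 0.22. The cause of these differences was not tested. The median SE of the members was 0.077 on the log2 scale.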
